A study of Mus musculus with 24 samples.

Results

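The comparison was between 8 libraries labelled untrained Thbs1/2 knockout (KO) and 8 labelled untrained wild type (WT), each made from bulk RNA of the anterior cingulate cortex of 1 mouse, and it covered genes outside chromosomes 2 and 17, which carry Thbs1 and Thbs2. These 16 libraries were taken from 24 in the series. The gene table held 15232 genes, of which 12572 had a mean of at least 1 FPKM (a level corrected for gene length and sequencing depth) over all 24 libraries. Of those, 10967 lay off the targeted chromosomes and 1605 on them. Each group held 4 females and 4 males, with a 12-hour light and 12-hour dark cycle and food freely available. Neither group received a treatment. Both genes are given as knocked out in every animal of the KO group, and the WT group is given with no alteration. The strain, the age, the design of the alleles and whether littermates were used are not given in the sources used here. The other 8 libraries came from trained KO mice, and their levels are printed beside some genes without a test.

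Thrombospondins 1 and 2 are large secreted glycoproteins of the extracellular matrix. In the developing brain astrocytes release them, and they promote the formation of excitatory synapses through the neuronal receptor subunit encoded by Cacna2d1. They also bind integrins and CD47, and thrombospondin 1 can activate latent TGF-beta. The anterior cingulate cortex is a midline frontal area that lies next to white matter, the lateral septum and the striatum in a coronal slice.

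The targeted genes went against the labels. Thbs1 was at 0.512 ± 0.147 FPKM (SD, n = 8) in libraries labelled WT and at 3.68 ± 0.84 FPKM (n = 8) in those labelled KO, and Thbs2 at 2.02 ± 0.294 and 3.51 ± 0.378 FPKM. For either gene the ranges did not overlap, and the exact two-sided permutation test over animals gave p = 0.0001554, the smallest it allows with 8 against 8. The deposited values are per gene, so a transcript that lacks an exon cannot be told from a whole one. Every direction below is therefore stated for libraries labelled KO against libraries labelled WT.

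One library was apart from the rest. Its median correlation with the other libraries was 0.956 against 0.986 to 0.991 elsewhere, and it held 27233267 reads recovered from the FPKM values against 12343773 to 19991770 in the other 15. This was a labelled KO male, animal 480. Counts of called genes are given with it (16 libraries) and without it (15 libraries), and most values of single genes name the libraries used.

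Regional markers differed between libraries. Over 21 tested markers of cortical excitatory neurons, the summed level in animal 480 was 1139 FPKM, against 1957 to 2546 FPKM in libraries labelled WT and 2138 to 2440 FPKM in the other 7 labelled KO. The summed level of septal markers was 152.6 FPKM in animal 480 and 14.97 to 22.3 FPKM in the other 15. Zic1, a transcription factor of septal and other ventral forebrain neurons, was at 52 FPKM there against 2.06 ± 0.42 FPKM (n = 8) in libraries labelled WT. Glp1r, Lhx8 and Chat were at 5.82, 5.62 and 8.17 FPKM in animal 480, and at means of 0.0773, 0.0616 and 0.386 FPKM in libraries labelled WT. Striatal markers were also high in that animal, with Drd1, Drd2 and Adora2a at 21.9, 29.9 and 19.2 FPKM and Penk at 309 FPKM. The septal and striatal genes of animal 480 were thus far above the cortical level, and its cortical genes far under it.

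Smaller regional differences ran through the other libraries. The mean log2(FPKM + 1) of the striatal markers was between 1.84 and 2.30 in 11 libraries, but 3.28, 3.70 and 3.21 in the labelled WT female 3, female 4 and male 3, and 3.57 in the labelled KO male 1. High striatal markers thus occurred in 3 of 8 animals labelled WT and in 1 of the 7 remaining labelled KO. The thalamic list (Rora, Slc17a6, Calb2 and others) had means of 1.80 to 1.89 in libraries labelled WT, 1.88 to 2.08 in the 7 labelled KO and 2.40 in animal 480. Only the lowest of those 7 was within the labelled WT range. In bulk tissue, fewer cells of a type and less RNA per cell cannot be told apart.

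**Figure D1:**
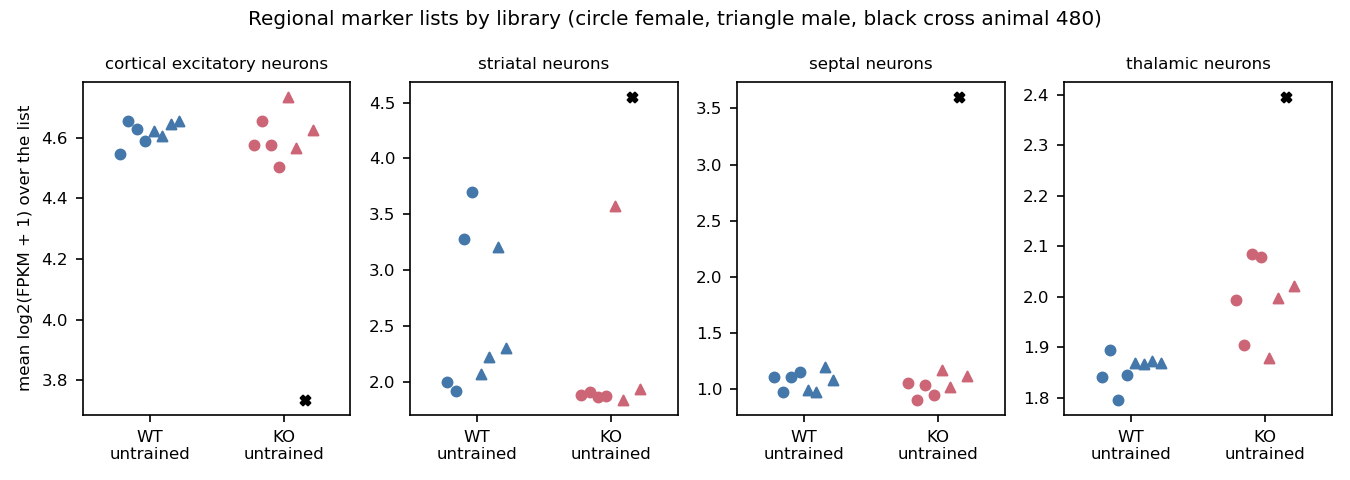
Mean log2(FPKM + 1) over 4 regional marker lists (vertical axes, each with its own range) in the 8 libraries labelled WT and the 8 labelled KO. Animal 480, the black cross, is the lowest for cortical excitatory neurons at 3.74 and the highest for striatal, septal and thalamic markers at 4.55, 3.60 and 2.40.

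With all 16 libraries, 83 of 10967 genes were called at an adjusted p under 0.05 by limma with sex as a covariate, which is 0.757% of those tested. Of these, 30 were higher (0.274%) and 53 lower (0.483%) in libraries labelled KO. Without animal 480, 198 genes were called (1.81%), 89 higher (0.812%) and 109 lower (0.994%). Both fits called 82 genes, which is 98.8% of the first set and 41.4% of the second, all 82 in the same direction. Fuca2, a fucosidase gene, was called only with animal 480 included (log2 difference 0.15 ± 0.04 SE, adjusted p = 0.046).

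Most called differences were small. The median absolute log2 difference over called genes was 0.29 with 16 libraries and 0.25 with 15, and Wwox and Gm765 were the 2 genes that reached 1 in the first. All 199 genes called in either fit had the same sign in females and in males when animal 480 was left out. The fits that called them took both sexes of these same animals together. Opposite signs would therefore rarely have passed, and the agreement is no separate support. Adcy1 and Gfra1 changed sign with animal 480. Adcy1, a calcium-stimulated adenylyl cyclase, was at 130 ± 10 FPKM (n = 8) in libraries labelled WT, 147 ± 5.8 FPKM in the 7 labelled KO (n = 7) and 49.2 FPKM in animal 480. Gfra1, a receptor for the neurotrophic factor GDNF, was at 8.04 ± 0.64, 6.71 ± 0.68 and 29.9 FPKM in the same order.

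These counts depend on the family over which p was adjusted. The adjustment ran over all 12572 genes, including 96 calls among the 1605 genes on chromosomes 2 and 17 with 16 libraries (142 with 15). Adjusted over the 10967 genes off those chromosomes alone, 33 genes were called with 16 libraries (0.301%) and 94 with 15 (0.857%). With the striatal marker mean as a covariate, an alternative added after the libraries had been seen, the counts were 112 and 86. Leaving out the labelled WT female 3, one of the libraries high in striatal markers, gave 42 calls in the first fit and 81 in the second. Counts also fell in both fits on leaving out any of the labelled KO females 1, 3 and 4 and male 4. Those libraries were low in striatal markers (means of 1.86 to 1.94). The labelled KO female 2 and male 2, which are not among them, were as low (1.91 and 1.84). Leaving out the labelled WT male 1, at 2.07, also lowered the count in the first fit. The cause of these moves was not tested.

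**Figure D2:**
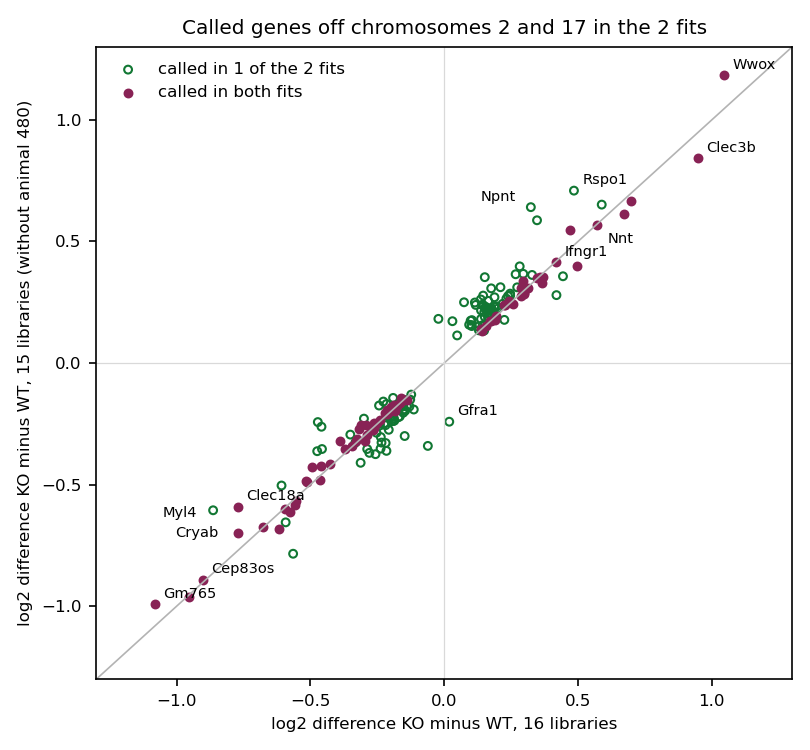
Log2 difference (labelled KO minus labelled WT) with 16 libraries (horizontal) and with 15 (vertical) for the 199 genes called in either fit, with the line of equality. The 82 genes called in both lie near the line, while Npnt is at 0.32 and 0.64, and Gfra1 turns from 0.02 to -0.24.

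The lowest called genes in libraries labelled KO included noncoding RNAs and coding genes. Cep83os is a noncoding RNA that starts beside the centrosomal gene Cep83 (GRCm38, chr10:94673493-94688613), and no other RefSeq gene overlaps it. Its lowest, median and highest FPKM were 9.92, 10.5 and 13 in libraries labelled WT and 4.76, 5.4 and 6.66 in those labelled KO. The 2 ranges were well apart, and animal 480 had the lowest value. Its log2 difference was -0.90 ± 0.06 (SE, adjusted p = 1.1e-07), and the trained libraries were lower still, at 3.7 ± 0.324 FPKM (n = 8).

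B230217O12Rik, an RNA from a RIKEN clone at chr19:57323197-57360899, was at 4.74 ± 0.727 FPKM in libraries labelled WT and 1.95 ± 0.318 FPKM in those labelled KO. Its values were 3.96, 4.49 and 5.89 FPKM (lowest, median, highest) against 1.53, 1.95 and 2.46 FPKM, so every labelled KO animal was under every labelled WT animal. This gave a log2 difference of -0.96 ± 0.08 (adjusted p = 9.8e-07). Gm765, a predicted gene at chr6:98238014-98342754, had 1.13, 2.83 and 3.9 FPKM against 0.0841, 0.8 and 1.47 FPKM. Its ranges overlapped, and the log2 difference was -1.08 ± 0.17 (adjusted p = 0.0019). The RIKEN transcript 2010315B03Rik at chr9:124291802-124312719 fell by 0.59 ± 0.10 on the log2 scale (adjusted p = 0.0037).

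Pop4 (chr7:38262812-38271393), which encodes a subunit of ribonuclease P, an enzyme that trims precursors of transfer RNA, had 9.5, 13 and 17.7 FPKM in libraries labelled WT and 6.66, 8.03 and 10.3 FPKM in those labelled KO. Its log2 difference was -0.68 ± 0.10 (adjusted p = 0.0016), with all 8 labelled KO values under the labelled WT mean and some overlap of the ranges. Rpp25 (chr9:57504102-57505447), the gene of another subunit, was at 8.82 ± 1.34 and 5.66 ± 0.764 FPKM, a log2 difference of -0.56 ± 0.08 (adjusted p = 0.00057). Without animal 480 its ranges no longer met, 6.67 to 11.2 against 4.67 to 6.4 FPKM.

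Cryab encodes alpha-B crystallin, a small heat shock protein abundant in oligodendrocytes and astrocytes. It had 30.7, 55.7 and 59.3 FPKM in libraries labelled WT and 21.1, 27.7 and 39.2 FPKM in those labelled KO. Most labelled KO values were under the lowest labelled WT value, with an overlap at the top of the group. The log2 difference was -0.77 ± 0.14 (adjusted p = 0.0061), and without animal 480 it was -0.70 ± 0.13 (adjusted p = 0.0041). The trained libraries were at 52.3 ± 16.9 FPKM, within and above the labelled WT range. Cryab overlaps Hspb2 and 2310030G06Rik in RefSeq, and how reads in shared stretches were assigned is not given in the sources used here. The summed level of oligodendrocyte markers, which could carry Cryab, was 1144 to 1831 FPKM in libraries labelled WT and 1293 to 1484 FPKM in 7 labelled KO; their part in this result was not tested.

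Other lowest genes had mixed functions. Pts, which makes 6-pyruvoyl tetrahydropterin on the way to the cofactor of tyrosine and tryptophan hydroxylases, was at 13.7 ± 1.69 and 8.66 ± 1.94 FPKM, a log2 difference of -0.62 ± 0.10 (adjusted p = 0.0035). Its ranges met only through animal 480, at 12 FPKM. Clec18a, a C-type lectin gene, was at 5.34 ± 0.995 and 2.88 ± 1.10 FPKM (log2 difference -0.77 ± 0.18, adjusted p = 0.036), and animal 480 held the lowest value at 0.401 FPKM. The call of Clec18a was lost under 15 of 29 alternatives. Gm7120 fell by 0.57 ± 0.13 on the log2 scale (adjusted p = 0.031); RefSeq gives its interval also to Tmem267. Myl4, a myosin light chain, was at 22.1 ± 3.77 FPKM against 14.2 ± 2.67 FPKM in the 7 labelled KO without animal 480, where it was called (-0.61 ± 0.12, adjusted p = 0.0076; -0.86 ± 0.25 with animal 480, adjusted p = 0.13).

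Sema3a, a secreted guidance factor, and Kcnj11, the pore subunit of the ATP-sensitive potassium channel, were also called as lower in both fits. Sema3a had 2.58 to 4.16 FPKM in libraries labelled WT and 1.72 to 2.44 FPKM in 7 labelled KO, with animal 480 at 2.32 FPKM. Kcnj11 was at 16.6 ± 2.5 and 11.5 ± 2.0 FPKM, a log2 difference of -0.50 ± 0.09 (adjusted p = 0.0055). Abcc8, which encodes the regulatory subunit of the same channel and lies beside it on chromosome 7, went the other way without animal 480 (0.24 ± 0.06, adjusted p = 0.044; 0.12 ± 0.12 with it, adjusted p = 0.75). Neither Sema3a nor this pair came from the rule for named genes; they were picked after their values had been seen.

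Among the highest genes, Wwox stood first in both fits and its libraries split within groups. Wwox encodes a WW-domain oxidoreductase at a fragile site on chromosome 8 (chr8:114439635-115352712). It had 9.14, 13 and 37.5 FPKM in libraries labelled WT and 14.8, 34.2 and 38.6 FPKM in those labelled KO. The labelled WT female 1 was at the labelled KO level, and animal 480 was at the labelled WT level. The log2 difference was 1.05 ± 0.22 (adjusted p = 0.026) with 16 libraries and 1.19 ± 0.19 (adjusted p = 0.0015) with 15.

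Ifngr1, the ligand-binding chain of the interferon-gamma receptor (chr10:19591949-19610229), separated the groups fully. Its values were 6.35, 7.26 and 8.99 FPKM in libraries labelled WT and 9.12, 10.2 and 11.6 FPKM in those labelled KO. The log2 difference was 0.42 ± 0.06 with either set of libraries (adjusted p = 0.00049 with 16), 0.40 in females and 0.44 in males. Trained libraries were at 9.61 ± 0.907 FPKM. The 12 tested members of the interferon response list, by contrast, had a median log2 difference of 0.03 without animal 480, and limma called 0 of them, with 2 at an unadjusted p under 0.05 and 0 called by limma-voom on recovered reads.

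Nnt encodes the nicotinamide nucleotide transhydrogenase of the inner mitochondrial membrane, and a deletion in it is known from the C57BL/6J substrain. It had 3.71, 5.09 and 7.81 FPKM in libraries labelled WT and 7.5, 8.2 and 9.34 FPKM in those labelled KO. The labelled WT animals were spread widely, with 2 females reaching the labelled KO range. The groups differed by 0.57 ± 0.12 on the log2 scale (adjusted p = 0.027).

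Ddo, which oxidizes D-aspartate, was at 2.59 ± 0.727 and 4.69 ± 0.988 FPKM (log2 difference 0.67 ± 0.11, adjusted p = 0.0037). Ntn4, a secreted netrin, was at 2.17 ± 0.294 FPKM in libraries labelled WT and 3.14 ± 0.36 FPKM in 7 labelled KO, and animal 480 was at 6.59 FPKM. Every labelled KO value of Ntn4 was above every labelled WT value (log2 difference 0.50 ± 0.11 with 16 libraries, adjusted p = 0.023; 0.40 ± 0.06 with 15, adjusted p = 0.0011). Clec3b, which encodes tetranectin, was at 1.05 ± 0.734 and 2.89 ± 1.05 FPKM (0.95 ± 0.20, adjusted p = 0.022). Ucp2, a mitochondrial uncoupling protein, was at 8.79 ± 1.73 and 11.6 ± 2.08 FPKM (0.36 ± 0.07, adjusted p = 0.012).

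Rps19-ps3, a pseudogene of a ribosomal protein gene, had ranges that did not meet (1.35 to 2.6 and 2.72 to 6.99 FPKM), but its reads can be shared with near-identical copies. Tekt5, a tektin gene, completed the 10 highest with 16 libraries (0.37 ± 0.09, adjusted p = 0.037). Urah, a gene of urate breakdown, entered the 10 highest only without animal 480 (0.59 ± 0.14, adjusted p = 0.037; 0.35 ± 0.25 with it, adjusted p = 0.62); animal 480 was at 0.412 FPKM. Across all tested genes, 16 had ranges that did not overlap with 16 libraries (0.146%), 6 higher (0.0547%) and 10 lower (0.0912%). Without animal 480 there were 24 (0.219%), 10 higher (0.0912%) and 14 lower (0.128%).

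**Figure D3:**
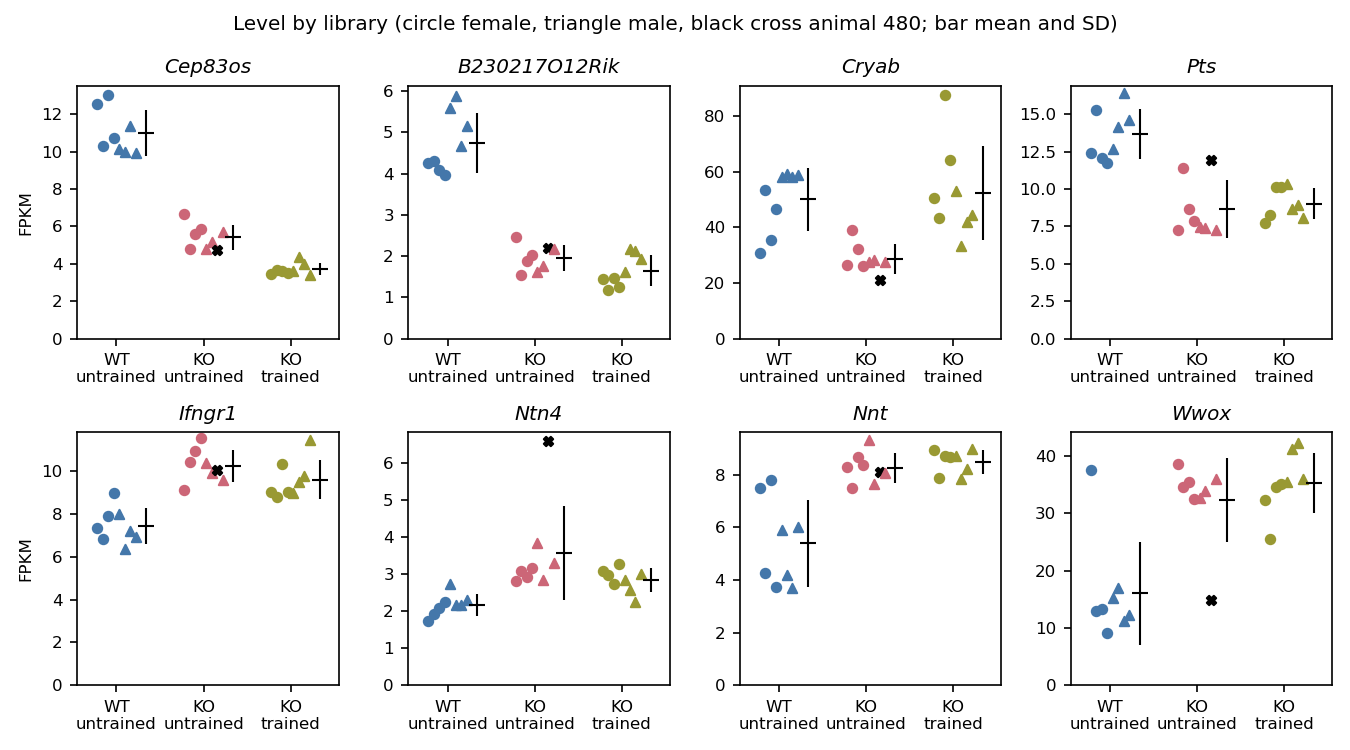
FPKM of 8 genes by library (vertical axes start at 0) in untrained WT, untrained KO and trained KO as labelled, with mean and SD beside each group of 8. Cep83os, B230217O12Rik, Ifngr1 and Ntn4 separate the 2 untrained groups fully, Wwox has 1 library of each group at the other group's level, and Cryab is at 52.3 FPKM on average in trained animals.

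Short RNA features also passed the test. Reads of poly(A) libraries over a microRNA hairpin come from longer transcripts and do not measure the mature microRNA, so the mature sequences below only identify which loci were called (RefSeq, GRCm38.p6, 5′ to 3′, with the seed at bases 2 to 8 in capitals). Both loci are shown because they were among the 10 highest or lowest genes without animal 480.
mmu-miR-3061-5p: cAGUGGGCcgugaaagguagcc
mmu-miR-3061-3p: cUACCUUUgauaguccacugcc
mmu-miR-703: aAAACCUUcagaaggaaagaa
The 3 seeds differ from each other.

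Mir3061 (hairpin at chr11:52126746-52126836, plus strand, no overlapping RefSeq gene) had 14.5, 16.3 and 23.7 FPKM in libraries labelled WT and 14.9, 25.7 and 31.8 FPKM in those labelled KO. Animal 480 was the lowest labelled KO library. The log2 difference was 0.47 ± 0.11 (adjusted p = 0.042) with it and 0.55 ± 0.09 (adjusted p = 0.002) without it. Mir703 (chr5:98475556-98475664, inside Cfap299) was at 4.6 ± 1.82 FPKM in libraries labelled WT, 2.53 ± 1.63 FPKM in 7 labelled KO and 7.33 FPKM in animal 480. It was called only without that animal (-0.78 ± 0.20, adjusted p = 0.047; -0.56 ± 0.28 with it, adjusted p = 0.42). Snord104, a small nucleolar RNA on chromosome 11, was at 9.22 ± 2.48 and 5.52 ± 1.9 FPKM without animal 480 (-0.66 ± 0.16, adjusted p = 0.034; -0.59 ± 0.17 with it, adjusted p = 0.11). For Mir703 and Snord104 the adjusted p over genes off chromosomes 2 and 17 alone was 0.072 and 0.055. The call of Mir3061 was lost under 19 of 30 alternatives, that of Mir703 under 19 of 29 and that of Snord104 under 14 of 30.

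Gene lists of cell types and pathways were described by the number of members called and the median log2 difference, beside the same for all genes. Of 535 tested genes in 38 lists, 3 were called with 16 libraries (0.561%) and 11 with 15 (2.06%), against 0.757% and 1.81% of all genes. Adjusted over genes off the targeted chromosomes alone, 1 and 4 of the 535 were called. With 16 libraries this was Cryab, and with 15 Cryab, Rspo1, Rora and Unc13a. The listed genes were thus called about as often as the background. At an unadjusted p under 0.05, the share of all 10967 genes was 11.4% with 16 libraries and 15.9% with 15. These shares are the background for every list count at an unadjusted p given below. The median log2 difference of all 10967 genes was 0.00 in either fit, and 51.4% were above 0 without animal 480.

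Of the cell type lists, astrocyte markers lay mostly above 0. Of 17 tested, 13 had a positive log2 difference without animal 480, with a median of 0.105, and with 16 libraries 16 did (median 0.077). Limma called 0 of the 17 in either fit and limma-voom 0, while 6 had an unadjusted p under 0.05 with 15 libraries and 5 with 16 (15.9% and 11.4% of all genes did). Gja1, the astrocyte gap junction protein connexin 43, was at 61 ± 2.5 FPKM (n = 8) in libraries labelled WT and 66.9 ± 4.5 FPKM (n = 7) in those labelled KO without animal 480 (0.12, adjusted p = 0.11). Acsbg1, an acyl-CoA synthetase, had 0.21 (adjusted p = 0.11). The summed level of the list overlapped, 1062 to 1286 FPKM against 1126 to 1446 FPKM.

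Microglial markers lay on the other side. Of 17 tested, 2 were above 0 without animal 480 (median -0.069) and 1 with it (median -0.071). Limma called 0, with 3 at an unadjusted p under 0.05 in the 15 libraries and 2 in the 16; limma-voom called 1 with 15, P2ry12, the ADP receptor of resting microglia (-0.25, adjusted p = 0.045). P2ry12 was at 15.7 ± 2.0 and 13.4 ± 1.7 FPKM, and limma gave -0.23 (adjusted p = 0.053). Cx3cr1, the fractalkine receptor, had -0.15 (adjusted p = 0.26). Summed levels were 316.1 to 358.5 FPKM against 290.7 to 370.3 FPKM.

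Oligodendrocyte markers changed with the choice of libraries. Their median was -0.153 with 16 libraries and -0.055 with 15, and animal 480 had a summed level of 816.5 FPKM, under all others. Limma called 0 of 15, with 0 at an unadjusted p under 0.05 in either fit and 0 called by limma-voom. Markers of meningeal and perivascular fibroblasts had a median of 0.210 without animal 480, with 12 of 14 above 0. Limma and limma-voom called 0, and 3 had an unadjusted p under 0.05 (4 with 16 libraries). Fmod, a small leucine-rich matrix proteoglycan, was at 3.97 ± 1.2 and 6.6 ± 2.9 FPKM (0.55, adjusted p = 0.2).

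Striatal markers had the lowest median, -0.516 over 10 tested genes without animal 480, all below 0. Limma and limma-voom called 0, and 1 had an unadjusted p under 0.05. Drd2 was at 4.71 ± 5.3 FPKM in libraries labelled WT and 2.38 ± 4.6 FPKM in 7 labelled KO, so the spread within each group exceeded the difference, and the 4 libraries named above held the highest values. Ependymal and choroid plexus markers had a median of -0.480 over 5 tested genes, with 0 called by either tool. Of these 5, 3 had an unadjusted p under 0.05 without animal 480 (15.9% of all genes did) and 0 with it. Of 7 perivascular macrophage markers 5 had deposited values, and of 7 blood cell markers 1 had. None of those with values reached a mean of 1 FPKM off the targeted chromosomes.

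Neuronal lists held a few called genes in opposite directions. Limma and limma-voom called 0 of 11 general neuron markers and 0 of 17 cortical interneuron markers. Of these, 9 and 10 were above 0 without animal 480. An unadjusted p under 0.05 was found for 4 and 7 without that animal and for 3 and 3 with it. Of all genes, 15.9% and 11.4% had one. Of 21 tested markers of cortical excitatory neurons, 1 was called as higher and 1 as lower without animal 480. The median was 0.009 (-0.154 with 16 libraries). Rspo1, a secreted activator of Wnt signalling, had 3.93, 4.64 and 6.94 FPKM in libraries labelled WT and 5.41, 8.35 and 12.1 FPKM in the 7 labelled KO, with animal 480 at 2.01 FPKM. It was called without that animal (0.71 ± 0.13, adjusted p = 0.0057) and not with it (0.48 ± 0.24, adjusted p = 0.41). Otof, a calcium sensor of vesicle fusion, fell without animal 480 (-0.33 ± 0.08, adjusted p = 0.033), and with it the difference was -0.23 ± 0.11 (adjusted p = 0.39). The call of Otof was lost under 15 of 29 alternatives. Npnt, an integrin-binding matrix protein outside the lists, was at 8.94 ± 1.46 FPKM, 14.6 ± 3.51 FPKM and 1.8 FPKM in animal 480 (0.64 ± 0.12 without it, adjusted p = 0.008; 0.32 ± 0.30 with it, adjusted p = 0.72).

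In the thalamic list, 2 of 7 tested genes were called as higher without animal 480 and 5 were above 0 (median 0.182). With that animal limma and limma-voom called 0, and 2 had an unadjusted p under 0.05. Rora, a nuclear receptor, was at 8.88 ± 0.867 and 10.9 ± 1.41 FPKM (0.25 ± 0.05, adjusted p = 0.016; 0.11 ± 0.13 with animal 480, adjusted p = 0.78). Slc17a6, the vesicular glutamate transporter VGLUT2, was at 4.56 ± 1.02 and 8.06 ± 2.74 FPKM (0.65 ± 0.17, adjusted p = 0.0498; 0.59 ± 0.18 with animal 480, adjusted p = 0.14). Both genes are also known from cortical neurons. Prkcd and Tnnt1, 2 markers more restricted to thalamus, were at 2.68 and 1.56 FPKM in libraries labelled WT and 2.89 and 1.89 FPKM in 7 labelled KO, and Gbx2 was at 0.00808 and 0.0141 FPKM. Adjusted over genes off chromosomes 2 and 17 alone, Rora kept its call without animal 480 and Slc17a6 did not. Slc17a6 also lost its call with the striatal mean as a covariate (adjusted p = 0.13). Over 30 alternatives it lost its call under 24.

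Of the synaptic lists, presynaptic release machinery had 1 gene higher and 1 lower of 24 without animal 480, and 0 called by limma with it (3 at an unadjusted p under 0.05, and 1 called by limma-voom, Unc13a). Unc13a, the vesicle priming factor Munc13-1, fell from 55.2 ± 2.48 to 48.8 ± 3.38 FPKM without animal 480 (-0.17 ± 0.04, adjusted p = 0.022), and with it the difference was -0.22 ± 0.06 (adjusted p = 0.073). Cplx1, a complexin that clamps and times release, was at 353 ± 62 and 447 ± 73.4 FPKM without animal 480 (0.37 ± 0.09, adjusted p = 0.034), and the call was lost with it (0.27 ± 0.12, adjusted p = 0.37). Adjusted over genes off chromosomes 2 and 17 alone, the adjusted p of Cplx1 without animal 480 was 0.055. Its call was lost under 16 of 30 alternatives. Sorbs2, an adaptor of the postsynaptic density, was called as lower in both fits (-0.29 ± 0.07, adjusted p = 0.046 with 16; -0.26 ± 0.06, adjusted p = 0.037 with 15) and was 1 of 17 scaffolds tested. Adjusted over genes off chromosomes 2 and 17 alone, its adjusted p was 0.087 and 0.060, and it lost its call under 16 of 30 alternatives. The median of the scaffold list was 0.001 without animal 480. Limma-voom called 3 of the 17 without that animal, Sorbs2, Dlgap2 (-0.17, adjusted p = 0.034) and Iqsec1 (0.13, adjusted p = 0.043). With animal 480 included, limma-voom called Sorbs2 alone.

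Ionotropic glutamate receptors and their partners had 0 of 15 members called by limma, with a median of -0.063 and 11 of 15 below 0 without animal 480. Of the 15, 6 had an unadjusted p under 0.05, against 15.9% of all genes, and limma-voom called 1, Gria2 (-0.23, adjusted p = 0.032). With 16 libraries 4 of the 15 had one, against 11.4% of all genes, and limma-voom called 0. The summed level in animal 480, 675.8 FPKM, was above that of every other untrained library. Gria2, the subunit that makes AMPA receptors impermeable to calcium, was at 96.9 ± 10 and 84.3 ± 10 FPKM, and limma gave -0.21 (adjusted p = 0.057). Gria1 had -0.15 (adjusted p = 0.083) and Grin2b -0.28 (adjusted p = 0.087). Metabotropic receptors had 0 of 9 called by limma, with 2 at an unadjusted p under 0.05 (15.9% of all genes were). Limma-voom called Grm3 without animal 480 (-0.26, adjusted p = 0.039). With that animal it called 0 of the 9, and 3 had an unadjusted p under 0.05.

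Thrombospondin relatives and receptors off the targeted chromosomes had 0 of 11 called by limma or limma-voom. Of the 11, 4 had an unadjusted p under 0.05 without animal 480 and 2 with it (15.9% and 11.4% of all genes did). Their median log2 difference was 0.00. Cacna2d1, the synaptogenic receptor subunit, was at 39.6 ± 3.3 and 37.1 ± 5.6 FPKM (-0.12, adjusted p = 0.25). Itga3, an integrin subunit, had 0.17 (adjusted p = 0.1). In the list of astrocyte synapse-shaping proteins limma called 1 of 13 tested, Pcdhgc5, as lower. Pcdhgc5, a gamma-protocadherin of astrocyte and neuron contacts, was at 28.7 ± 1.87 and 25 ± 1.82 FPKM (-0.19 ± 0.05, adjusted p = 0.044 with 16 libraries). It was called in both fits, but not when adjusted over genes off chromosomes 2 and 17 alone (adjusted p = 0.083 and 0.063), nor by limma-voom with 16 libraries, and it lost its call under 22 of 30 alternatives. RefSeq gives its interval also to other Pcdhg genes that share its last exons, 18 of them tested and none called by limma, so its reads are uncertain. Sparcl1, the synaptogenic protein hevin, had 0.18 (adjusted p = 0.14). The TGF-beta list had 0 of 15 called by limma or limma-voom, with 0 at an unadjusted p under 0.05 without animal 480 and 2 with it, and a median of 0.004.

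Among the other pathways, Cryab was the single call of the 12 tested genes in the cytosolic heat shock list, whose median was 0.019. Dnaja4, a cytosolic co-chaperone outside that list and picked after its values had been seen, was also lower in both fits (-0.26 ± 0.05, adjusted p = 0.015 with 16 libraries), at 17.01 ± 1.32 and 14.02 ± 1.06 FPKM, with trained libraries at 17.9 ± 1.06 FPKM. Hspa8 and Hsp90aa1, abundant chaperones, had 0.05 and 0.06 (adjusted p = 0.58 and 0.49). Hlf, a clock output factor, was the single call of the 17 listed clock genes without animal 480 (0.25 ± 0.06, adjusted p = 0.037; 0.07 ± 0.17 with it, adjusted p = 0.90). Kcnn2, a calcium-activated potassium channel, was the single call among the 21 listed potassium channel genes (0.31 ± 0.07, adjusted p = 0.034; 0.18 ± 0.14 with animal 480, adjusted p = 0.64); that list does not hold Kcnj11. Animal 480 was low for both, at 23.9 and 9.88 FPKM. Adjusted over genes off chromosomes 2 and 17 alone, neither Hlf nor Kcnn2 was called. Their calls were lost under 15 and 17 of 30 alternatives. With the striatal mean as a covariate, Otof, Unc13a, Cplx1, Hlf and Kcnn2 had adjusted p of 0.092, 0.052, 0.085, 0.1 and 0.075.

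Nuclear genes of oxidative phosphorylation lay almost all on 1 side, 28 of 30 above 0 in either fit, with a median of 0.060 without animal 480. Limma and limma-voom called 0 of them, and 5 had an unadjusted p under 0.05 (3 with 16 libraries), a share near that of all genes, 15.9% and 11.4%. Ndufb8, a complex I subunit, was at 154 ± 13 and 171 ± 14 FPKM (0.16, adjusted p = 0.11). Cytosolic ribosomal proteins had 23 of 30 above 0 and a median of 0.044, with 0 called by either tool and 9 at an unadjusted p under 0.05, against 15.9% of all genes. Sterol synthesis had 15 of 19 below 0 (median -0.057, 0 called by either tool, 1 at an unadjusted p under 0.05).

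Scaling changed the sign of some list medians near 0, those of cortical excitatory neurons (-0.008) and of septal neurons (-0.006) among them when each library was set to the same sum. The astrocyte, microglial, fibroblast, striatal, thalamic and oxidative phosphorylation medians kept their sign under either scaling.

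**Figure D4:**
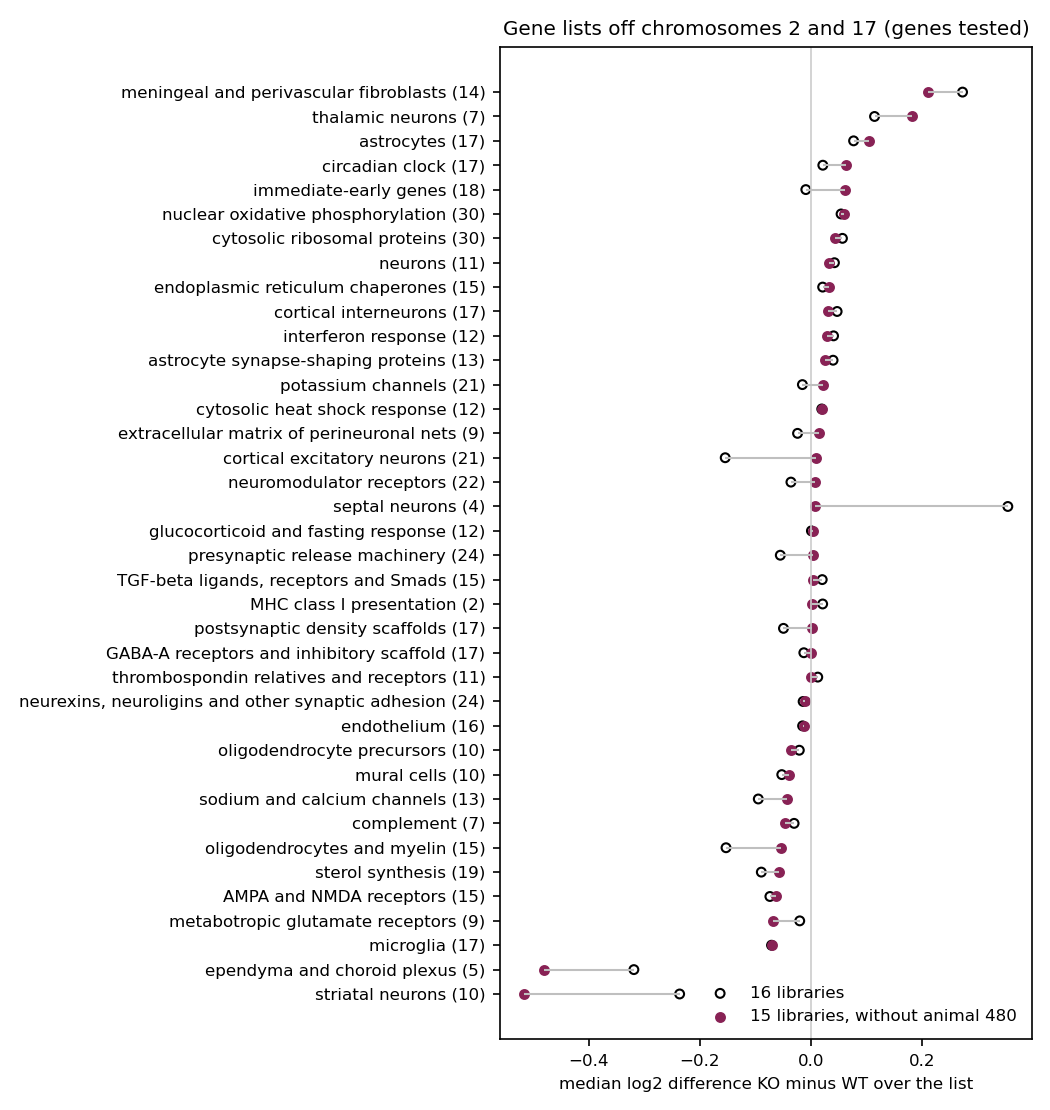
Median log2 difference (labelled KO minus labelled WT) over the tested members of 38 gene lists with 16 libraries (open) and without animal 480 (filled), with the number of genes in brackets. Septal markers move from 0.355 to 0.007 and cortical excitatory markers from -0.154 to 0.009 when animal 480 is left out, and striatal markers from -0.236 to -0.516.

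Some called genes lay close to each other. Positions were matched for 197 genes called in either fit. Of these, 72 fell in 29 runs in which each gene started within 1 Mb of the next called gene. How many of 197 tested genes drawn at random would do so was not computed. The limits of a run were set by its outermost called genes, so the shares called within runs are high by construction. A run on chromosome 9 (GRCm38, chr9:50521617-50899325) held 6 called of 15 tested genes, Pts, AU019823, Dlat, Cryab, Fdxacb1 and Ppp2r1b, in both directions. Dlat, a subunit of the pyruvate dehydrogenase complex, was at 23.4 ± 1.1 and 26.1 ± 1.6 FPKM (0.14 ± 0.03, adjusted p = 0.022 without animal 480). Ppp2r1b, a scaffold of protein phosphatase 2A, had 0.31 ± 0.06 (adjusted p = 0.012), and 0.27 ± 0.07 with animal 480 (adjusted p = 0.068).

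The called genes of a run on chromosome 4 included Rps19-ps3, Miip, Mfn2, Clcn6 and Fbxo2. Mfn2, the mitofusin of outer mitochondrial membranes, fell (-0.21 ± 0.04, adjusted p = 0.0027), and Clcn6, an endosomal chloride transporter, rose (0.26 ± 0.04, adjusted p = 0.0006). On chromosome 10 (chr10:93453396-94688613) Lta4h, Ntn4, Nr2c1 and Cep83os were 4 called of 10 tested, and on chromosome 19 B230217O12Rik, Trub1 and Gfra1 were 3 of 5. On the X chromosome Bex4, Tceal8 and Bex1 were 3 of 4, all lower. By chromosome, the share called without animal 480 ran from 1.09% on chromosome 12 to 3.44% on chromosome 9, leaving out chromosome Y with 4 tested genes and 0 called. These positions are a description with no test.

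**Figure D5:**
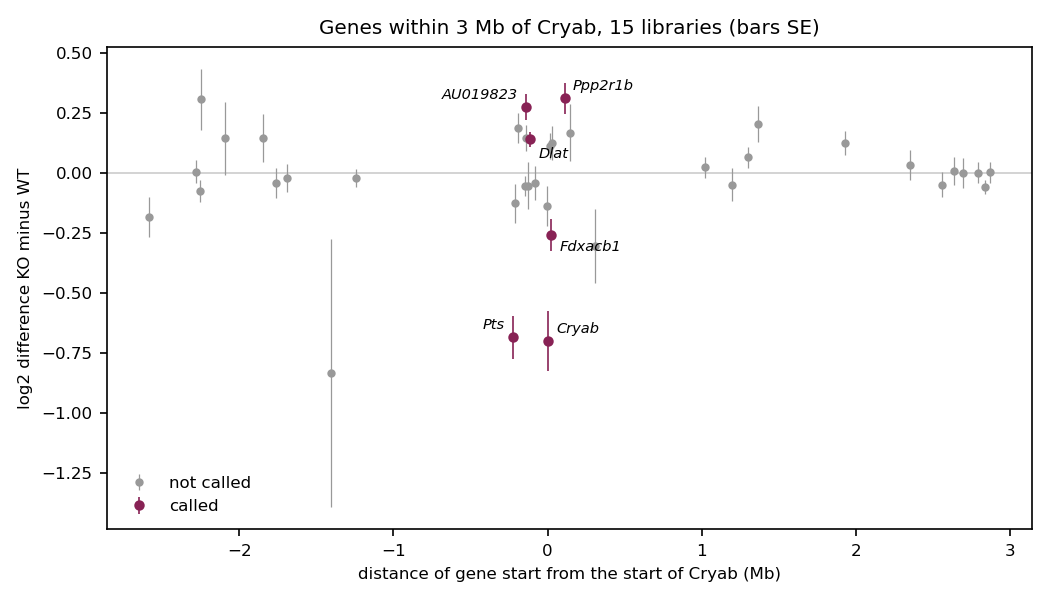
Log2 difference without animal 480 (labelled KO minus labelled WT, bars SE) for tested genes within 3 Mb of Cryab, by distance of the gene start from the start of Cryab. The 6 called genes lie within 0.4 Mb, with Pts and Cryab at -0.68 and -0.70 and Ppp2r1b at 0.31.

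Females and males were compared by the interaction of label with sex. Limma called 0 of 10967 genes with 16 libraries and 0 with 15, with 342 (3.12%) and 356 (3.25%) at an unadjusted p under 0.05. Rdm1, a homologous recombination gene, had the smallest p in both fits (0.00032 with 16 libraries, adjusted p = 0.98), with a log2 difference of -0.34 in females and 0.28 in males. Cryab had -0.40 in females and -1.14 in males, and no difference between the sexes was called for it.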

How the data were processed

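The authors deposited 1 table of FPKM values for 24 libraries, 1 per animal, made from TRIzol-extracted RNA with the Illumina TruSeq stranded mRNA kit, per the labels' protocols. FastQC 0.11.7, Trimmomatic 0.38, STAR 2.5.3a, featureCounts with Subread 1.6.3 and the build mm10 are named in the submitters' processing notes; the annotation and the strand setting are not given in the sources used here. Genes were placed on GRCm38 from RefSeq: 14563 of 15232 by symbol, 606 by an older symbol and 63 by their place in the table alone. GENCODE M21 served only for the correction for GC content and length. 24 symbols had been turned into dates.

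Values were tested as log2(FPKM + 1) in limma 3.58.1 (R 4.3.3) with sex as a covariate and an intensity trend. Only genes averaging 1 FPKM or more over the 24 libraries entered, and Benjamini-Hochberg adjustment ran over all 12572. Log2 differences on this scale understate the change of low genes. P-values measure the spread between the animals sampled. A value of 1 read could be recovered for all 15232 genes (99.97% of values whole within 0.01 read), which gave the depths and the counts for limma-voom. In simulated data for this comparison with 200 of 12572 genes changed by a fold of 2, limma recovered 196, all in the right direction, with 14 other calls. That change exceeded most called differences here (median absolute log2 difference 0.29 with 16 libraries and 0.25 with 15). How many smaller differences were missed was therefore not measured.

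Members and gene lists were chosen with earlier results of these data known. Named genes were the 10 highest and 10 lowest called genes of each fit with the same sign in both sexes, all called list members, and up to 4 members of a list with the smallest p (3 where none was called); all other genes were picked after their values had been seen. Alternatives were other pseudocounts (0.1), filters (none, or a mean of 5), scalings, covariates, weights, the replicate block, and each library left out. A few genes are not reported here.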

Additional observations from a re-analysis of the deposited data

Results flagged for a closer look

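Library values were compared within groups of 8 by Dixon's criterion for each gene named as highest, lowest or a called list member and for 4 regional marker lists. Chance marks about 1 in 20 groups, and 82 groups gave 15 marks, 11 of them on animal 480. That rate does not hold for these genes. Several, such as Hlf, Kcnn2, Rora, Otof and Myl4, were named through calls made only without animal 480. Animal 480 was apart from the other labelled KO libraries as the lowest for Clec18a (0.401 FPKM), Hlf (23.9 FPKM), Kcnn2 (9.88 FPKM), Myl4 (2.60 FPKM), Rora (4.16 FPKM) and Wwox (14.8 FPKM), and as the highest for Ntn4 (6.59 FPKM) and Otof (4.58 FPKM). It was also apart for the marker means of cortical excitatory neurons (3.74), septal neurons (3.60) and thalamic neurons (2.40, on the log2(FPKM + 1) scale).

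The other 4 marks fell on single genes. Wwox was at 37.5 FPKM in the labelled WT female 1, with the other 7 labelled WT libraries far under it. Mir3061 was at 23.7 FPKM in the labelled WT female 3, the highest of its group. Otof was at 2.42 FPKM in the labelled WT male 1, the lowest of its group. Pcdhgc5 was at 20.8 FPKM in the labelled KO female 4, the lowest of its group.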

How the results depend on the processing

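With 16 libraries the count of 83 called genes became 34 with no sex covariate, 156 with array weights, 42 with the replicate block, 55 with animals numbered under 1000 and 33 when adjusted over genes off chromosomes 2 and 17. Leaving out 1 library gave 42 to 198; the labelled WT female 3, female 4, male 1 and male 3 and the labelled KO females 1, 3 and 4 and male 4 gave 42 to 53, and animal 480 gave 198. Without animal 480 the count of 198 became 52 with no sex covariate, 116 with all 24 libraries in one fit, 59 with the replicate block, 86 with the striatal marker mean as a covariate, 130 with animals under 1000 and 94 when adjusted over genes off chromosomes 2 and 17. Leaving out 1 further library gave 81 to 257; the labelled WT female 3 and male 3 and the labelled KO females 1, 3 and 4 and male 4 gave 81 to 116. The cause of these moves was not tested. The striatal covariate, limma-voom and the correction for GC content and length were chosen after seeing the data.

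Setting each library to an equal sum turned the split without animal 480 from 89 higher and 109 lower to 78 and 152 (44.9% and 33.9% higher). Replicate numbers did not pair the samples: over 8 pairs the correlation of deviations ran from -0.295 to 0.361 (mean 0.025), and 2 of 16 libraries correlated best with their own number. Alternatives were followed for the 35 called genes that the naming rule chose, not for those picked afterwards such as Adcy1 and Gfra1. Of the 35, 9 kept their call and sign under every alternative run (Cep83os, B230217O12Rik, Gm765, Pop4, Pts, Rpp25, 2010315B03Rik, Ddo and Ifngr1), and none of the 35 changed sign under those alternatives. Cryab and Ucp2 lost their calls under 1 of 30. Other genes among the highest and lowest lost theirs more often. Clec18a and Urah did so under 15 and 16 of 29, and Tekt5, Gm7120, Nnt and Wwox under 16, 13, 11 and 10 of 30. Depth ran from 12343773 to 19991770 reads without animal 480 and limits low genes most.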
